A study of Mus musculus with 12 samples.

Results

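A list of 10 transcription factor genes, out of the 31053 genes in the table, were followed through the lymphocytes of MC38 tumors: Tox, Tox2, Eomes, Tbx21, Nr4a2, Nr4a3, Prdm1, Batf, Id2 and Zeb2. They are factors known from T cell exhaustion and effector differentiation, and all 10 were found by symbol. MC38, a mouse colon adenocarcinoma line, was grown under the skin of C57BL/6 mice, and CD45+ cells, the hematopoietic cells of the tumor, were isolated on day 17 and profiled by droplet scRNA-Seq with molecular identifiers (UMIs). The 12 mice formed 4 groups of 3: PF-06821497, an inhibitor of the histone methyltransferase EZH2 (EZH2i), at 100 mg/kg daily for 16 days or for 7 days, and vehicle for 16 or for 7 days. All mice carried the tumor.

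The cells were deposited as 1 matrix whose barcodes end in a library number from 1 to 12, and no label ties a number to a mouse. Groups were taken from labels alone, not inferred from barcode totals or library order, so EZH2i and vehicle were not compared here. The matrix was treated as 1 pooled sample without p-values, and libraries serve to show spread. The 95% intervals cover counting error only, and are exact for levels and shares and a large-sample approximation for ratios. Libraries 1 to 6 carried transcripts of 4 Y-linked genes at 128 to 209 CPM (UMIs of a gene per 1000000 UMIs), whereas libraries 7 to 12 had none and carried Xist instead. The methods describe female mice, so these libraries stand apart from their description. Library 4 held 28 gated lymphocytes and library 6 held 38110 of the 140639 barcodes. Of 138353 barcode sequences, 2261 occurred in 2 or 3 libraries, but among the 4937 gated lymphocytes only 3 were shared. UMIs per library ranged from 21649947 to 158760328.

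In tumors, T cells that meet antigen for a long time enter exhaustion, a state of sustained inhibitory receptors and reduced function. TOX, an HMG-box factor, establishes that state downstream of NFAT signaling, and NR4A nuclear receptors are induced by the same signals. The T-box factors T-bet (Tbx21) and Eomesodermin (Eomes) drive cytotoxic programs in CD8+ T cells and NK cells. BATF cooperates with IRF4 at antigen-responsive genes, Blimp-1 (Prdm1) and ID2 favor effector over memory fates, and ZEB2 acts with T-bet in terminal effector cells. Within exhausted CD8+ T cells, TCF-1 (Tcf7) marks the progenitor pool and TIM-3 (Havcr2) the more differentiated cells.

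Cells were placed in classes by lineage UMIs. There were 3704 CD8 T cells, 728 CD4 T cells without Foxp3 UMIs, 37 Foxp3+ T cells, 88 gamma delta T cells and 380 NK cells among 128912 cells kept. Median depth was 2863 UMIs in CD8 T, 3162 in CD4 T, 4613 in Foxp3+ T, 1717 in gamma delta T and 2672 in NK cells. B cells (302), macrophages (59495, median 7684 UMIs) and neutrophils (1819) served as reference classes. Markers that the gates did not use followed the names. Il2ra, the high-affinity interleukin 2 receptor chain, was at 697 CPM in Foxp3+ T cells and 213 CPM in CD4 T cells. Gzma, a granzyme of NK cells, was at 3443 CPM in NK cells and 286 CPM in CD8 T cells, and Il17a was at 956 CPM in gamma delta T cells and 0.143 CPM in CD8 T cells. The regulatory T cell list summed to 1326 CPM in the CD4 class, against 481 CPM in CD8 T cells. Macrophage RNA was present in every lymphocyte class. Of 7 macrophage genes, the 2 used as exclusions were at 0 by construction, and the list summed to 1856 to 2563 CPM in the 5 classes, 4.32% to 5.96% of its level in macrophages.

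**Figure D1:**
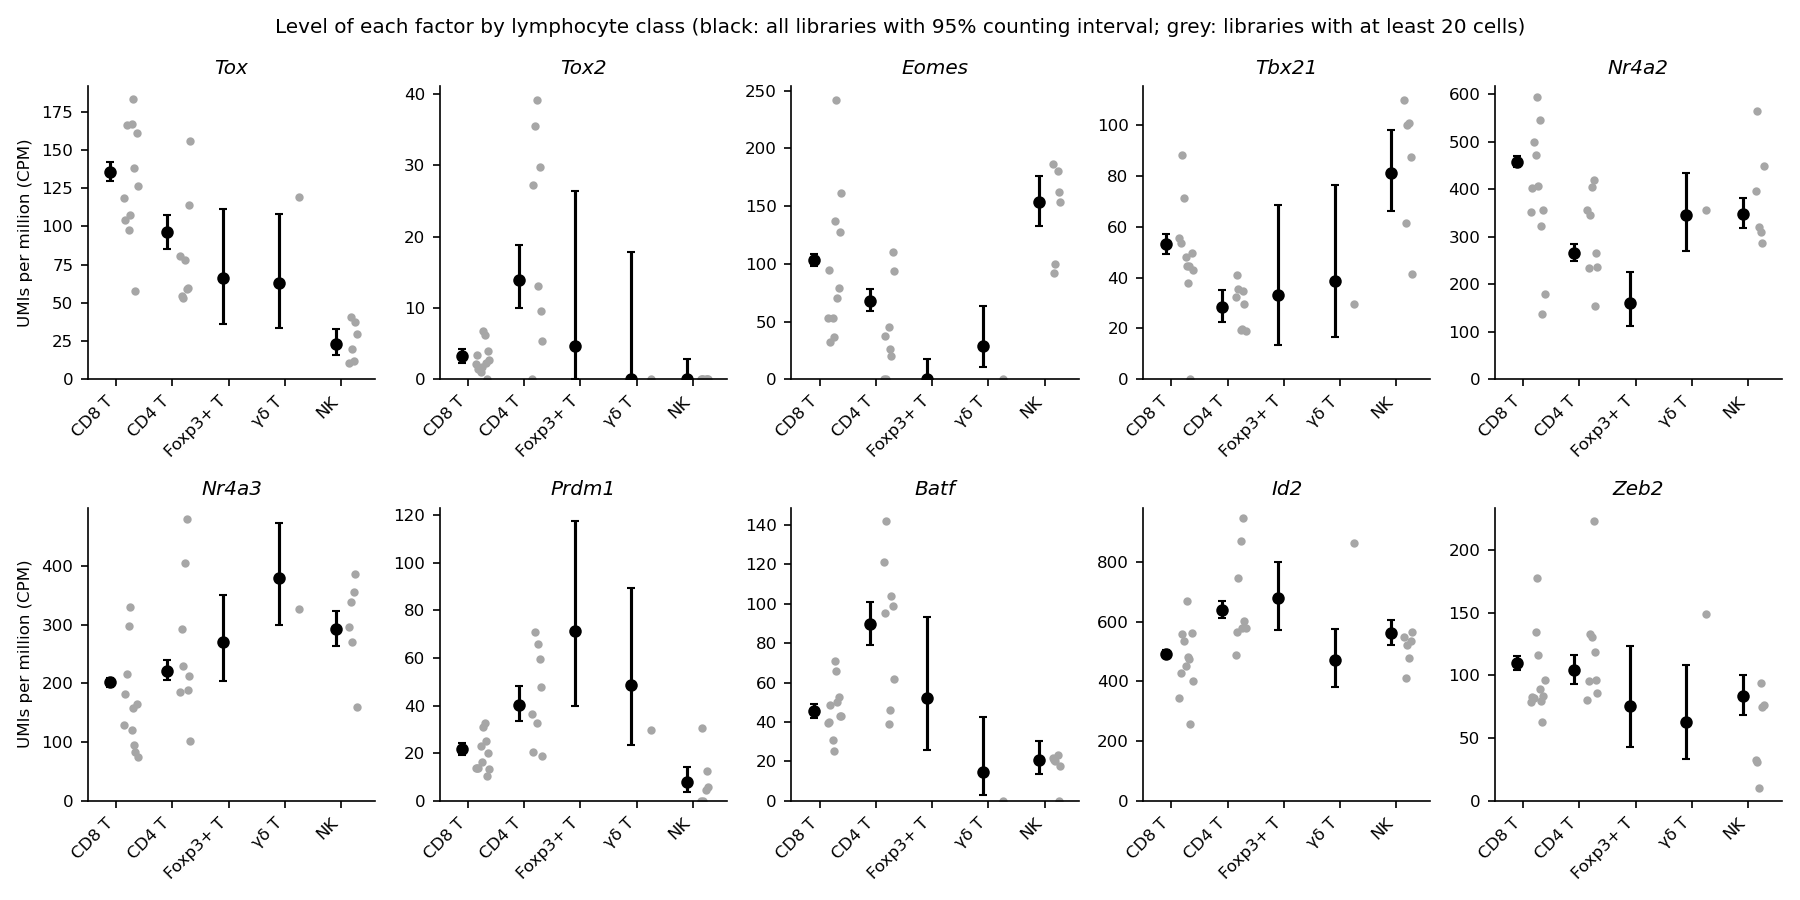
Level of each of the 10 factors in CPM (UMIs per 1000000, y axis) in 5 lymphocyte classes (x axis). Black points give all libraries together with the 95% counting interval, and grey points give single libraries with at least 20 cells. Tox was highest in CD8 T cells at 136 CPM and lowest in NK cells at 23.2 CPM, while Eomes was highest in NK cells at 154 CPM and had no UMI in Foxp3+ T cells.

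The HMG-box factor Tox separated T cells from NK cells. Tox reached 136 CPM in CD8 T cells (95% interval 130 to 142), 96.1 in CD4 T, 66.3 in Foxp3+ T, 63.1 in gamma delta T and 23.2 in NK cells (15.6 to 33). Over 11 libraries the CD8 T level had a minimum of 57.7, a median of 126 and a maximum of 183 CPM. Over 6 libraries the NK level ran from 11 to 41 CPM with a median of 24.8, so the NK and CD8 T ranges did not overlap. Of the intervals of neighbouring classes, those of CD8 T and CD4 T cells and those of gamma delta T and NK cells were apart. After each cell was thinned to 1000 UMIs, 12.4% of CD8 T cells, 2.61% of NK cells and 0.0337% of macrophages had a Tox UMI, and no B cell had one, which left little background. Tox2, its paralog, was sparse. It had 42 UMIs in CD4 T cells (14.0 CPM) and 45 in the larger CD8 T class (3.22 CPM), and none in NK or gamma delta T cells. Within libraries its rate in CD4 T cells was 3.63-fold that in CD8 T cells (2.44 to 5.38), higher in 7 of 8 libraries, and 6.24-fold without library 8. In the GENCODE M21 annotation of GRCm38 the protein-coding genes are Tox (chr4:6686353-6991557, minus strand) and Tox2 (chr2:163203125-163324170, plus strand).

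Of the T-box factors, Eomes had its highest level in NK cells. Eomes stood at 154 CPM in NK cells (133 to 176), 103 in CD8 T, 68.1 in CD4 T and 29.1 in gamma delta T cells. The CD4 T level rested on library 8, and was 37.6 CPM without it (29.1 to 47.9). Over 8 libraries it ran from 0 in 2 of them to 111 CPM with a median of 31.9. In Foxp3+ T cells it had 0 UMIs in 37 cells, which allows up to 17.5 CPM. The NK level ranged from 92.3 to 187 CPM over 6 libraries with a median of 158. In CD8 T cells it ranged from 32.8 to 242 CPM over 11 libraries with a median of 78.7, the widest fold range in that class among the factors present in every one of these libraries, and overlapping the NK range. Tbx21 followed the same order at the top, with 81.0 CPM in NK cells (66.3 to 98.1) and 53.0 in CD8 T cells (49.3 to 57.0), and was at 28.3 to 38.8 CPM in the other T cell classes, whose intervals overlapped. In Foxp3+ T cells Tbx21 was at 8.84 CPM, from 1 UMI, without library 8. Both genes were nearly absent from macrophages (0.311 CPM for Eomes and 0.234 CPM for Tbx21). The genes are Eomes (chr9:118478212-118486132, plus strand) and Tbx21 (chr11:97098071-97115331, minus strand).

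The nuclear receptors Nr4a2 and Nr4a3 differed in where CD8 T cells stood among the classes. With libraries pooled, Nr4a2 was highest in CD8 T cells at 458 CPM (446 to 469), followed by NK at 349, gamma delta T at 345, CD4 T at 266 and Foxp3+ T at 161 CPM. Pooled in the same way, Nr4a3 was lowest in CD8 T cells at 202 CPM. It was at 222 in CD4 T, 270.1 in Foxp3+ T, 292 in NK and 379 in gamma delta T cells, and each neighbouring pair of intervals overlapped. In library 6, the only one with 20 gamma delta T cells, Nr4a3 was at 327 CPM in them and 331 CPM in CD8 T cells. The place of Nr4a2 in NK cells varied with the library. It was above the CD8 T level in library 1 (395 against 351 CPM), library 2 (564 against 403) and library 7 (449 against 407) and below it in libraries 3, 5 and 6. The within-library ratio of NK over CD8 T cells was 0.841 (0.763 to 0.927), and it was 0.940 without library 5 and 0.970 in libraries without Y-linked transcripts. Within libraries the Nr4a2 rate of CD4 T cells was 0.593 of that in CD8 T cells while the Nr4a3 rate was 1.36-fold, higher in 8 of 8 libraries. Both were also found outside the 5 lymphocyte classes. Nr4a2 was at 208 CPM in macrophages and 127 in B cells, and Nr4a3 at 118 CPM in macrophages and 182 in neutrophils. After thinning, 19.7% of macrophages had an Nr4a2 UMI against 33.8% of CD8 T cells. The genes are Nr4a2 (chr2:57106830-57124003, minus strand) and Nr4a3 (chr4:48045153-48086447, plus strand).

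Nr4a genes are known targets of CREB, which binds the cAMP response element. The bases before the start sites of both genes are shown because each held several half-sites of that element, TGACG on either strand, given in capitals (RefSeq, GRCm38.p6, in the direction of transcription). For Nr4a2 they are the 250 bases at chr2:57124004-57124253 on the minus strand. For Nr4a3 they are the 98 bases at chr4:48045055-48045152 on the plus strand, where the annotation's first exon begins.
Nr4a2: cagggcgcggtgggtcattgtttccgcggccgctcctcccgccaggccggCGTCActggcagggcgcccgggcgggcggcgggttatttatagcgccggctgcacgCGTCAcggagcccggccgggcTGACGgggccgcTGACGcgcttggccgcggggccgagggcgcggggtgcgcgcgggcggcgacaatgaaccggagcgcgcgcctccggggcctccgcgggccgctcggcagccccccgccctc
Nr4a3: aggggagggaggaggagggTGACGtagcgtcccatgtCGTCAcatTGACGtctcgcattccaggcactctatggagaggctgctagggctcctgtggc
The Nr4a2 window held 4 half-sites. The Nr4a3 window of 250 bases also held 4, of which 3 lie in the stretch printed. The rest of that window lies downstream of the printed stretch, from where the annotation's first exon begins. At least 1 half-site was present in 17.8% of 32851 promoter windows of 250 bases and at least 4 in 0.137%. Of the other members with an entry, Batf and Prdm1 held 1, Tox2 and Zeb2 held 0 or 1 depending on the start site, and Eomes, Tbx21 and Id2 held none. A match describes the letters only and no binding was measured.

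Prdm1, Batf and Id2 had higher levels in CD4 T than in CD8 T cells. Prdm1 was at 71.1 CPM in Foxp3+ T (39.8 to 117), 48.6 in gamma delta T, 40.2 in CD4 T, 21.6 in CD8 T and 7.72 in NK cells. Over libraries it ranged from 18.8 to 70.9 CPM in CD4 T cells (median 42.1, 8 libraries) and from 10.5 to 32.9 CPM in CD8 T cells (median 16.1, 11 libraries), which overlap. Batf was at 89.7 CPM in CD4 T (79.4 to 101.1), 52.1 in Foxp3+ T, 45.6 in CD8 T, 20.8 in NK and 14.6 in gamma delta T cells. The Batf range was 39.2 to 142 CPM in CD4 T cells and 25.1 to 71.1 CPM in CD8 T cells. Id2 was high in every class, at 678 CPM in Foxp3+ T, 639.8 in CD4 T, 563 in NK, 492 in CD8 T and 471 in gamma delta T cells. Id2 was also at 334 CPM in macrophages, so Id2 alone does not mark lymphocytes here. Prdm1 was at 42.9 CPM in macrophages, above its CD8 T level. The genes are Prdm1 (chr10:44437177-44528501, minus strand), Batf (chr12:85686669-85709087, plus strand) and Id2 (chr12:25093799-25097140, minus strand).

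Zeb2 was higher in myeloid cells than in any of the 5 classes. It was at 110.1 CPM in CD8 T (105 to 116), 104 in CD4 T, 83.3 in NK (68.4 to 101), 75.8 in Foxp3+ T and 63.1 in gamma delta T cells. The intervals of neighbouring classes overlapped, whereas those of CD8 T and NK cells did not. Macrophages had 353 CPM and neutrophils 708 CPM. The gene is Zeb2 (chr2:44983632-45117395, minus strand). In CD8 T cells Zeb2 was 187 CPM when cells with myeloid UMIs were kept and 90.5 CPM when cells with UMIs of Lyz2, C1q genes or S100a8 were also removed. Library 6, with the highest Zeb2 level in CD8 T cells (177 CPM) among libraries with at least 20 such cells, also had the highest macrophage list (7578 CPM against 635 to 2231 CPM in the other 10 libraries). The part of macrophage RNA in the Zeb2 level was not tested.

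To compare classes within libraries, UMI rates were set against each other in each library and combined over all libraries as a Mantel-Haenszel ratio. A gene passed the fold rule when this ratio was at least 1.5 either way and at least 80% of libraries with 20 cells of both classes (10 within CD8 T cells) had that direction. Genes entered at a mean of 20 CPM or more. Between NK and CD8 T cells, 8 members entered with 6 libraries. Eomes was higher in NK cells by 1.79-fold (1.53 to 2.098) in 5 of 6 libraries, and Tox (ratio 0.185, 0.129 to 0.266) and Batf (0.478, 0.322 to 0.710) were lower in 6 of 6. The background over 5432 genes was 4.57% higher and 8.16% lower. For Eomes, library 1 had 187 CPM in NK against 53.4 in CD8 T cells, library 3 had 100.04 against 32.8, library 5 had 180.4 against 52.9, library 6 had 162 against 36.7, library 7 had 153 against 137 and library 2 had 92.3 against 94.4. The Eomes ratio was 2.82 in the libraries with Y-linked transcripts and 1.10 in those without, where Eomes no longer passed and Nr4a3 did. In that set, as with stricter exclusion, the direction rested on 1 library with 20 cells of both, and after thinning on 2. Eomes also failed to pass without library 5 (1.41, again with Nr4a3 passing), without exclusion of other cell types (1.41), with stricter exclusion (1.39), when pooled over libraries (1.49) and when libraries with 5 cells of both were counted. Tbx21 (1.43-fold, 5 of 6 libraries) did not reach the fold, but passed as higher when pooled (1.53) and after thinning (2.07). Batf no longer passed after thinning, where Tox alone was lower. Of all genes 10.8% were higher and 13.2% lower after thinning, and 12.8% and 17.2% with stricter exclusion. In libraries without Y-linked transcripts these shares were 11.4% and 12.7%. Counts of 1 of 8 members, lower after thinning and higher in libraries without Y-linked transcripts, are near these shares. Nr4a3 (1.44-fold) was higher in NK cells and Zeb2 (0.719, 0.589 to 0.878) lower, each in 6 of 6 libraries, without reaching the fold. Zeb2 did pass as lower by the median over libraries (0.467), with 2 UMIs of each gate gene (0.535), without library 9 and in libraries with Y-linked transcripts (0.556), but its ratio was 1.08 in those without and 1.04 with stricter exclusion. The median log2 ratio was -0.06 over the members and -0.06 over all genes tested.

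Between CD4 and CD8 T cells, 6 of 9 members passed in 8 libraries. Prdm1 (1.63-fold, 1.32 to 2.03, 7 of 8 libraries) and Batf (1.71-fold, 1.47 to 1.98, 8 of 8) were higher in CD4 T cells. Tox (0.623, 7 of 8), Eomes (0.452, 7 of 8), Tbx21 (0.594, 8 of 8) and Nr4a2 (0.593, 7 of 8) were lower. The background over 5502 genes was 7.65% higher and 2.74% lower. For Tbx21 the CD4 T level ran from 18.8 to 40.9 CPM and the CD8 T level from 37.9 to 88.1 CPM in these libraries. Id2 was 1.34-fold in 8 of 8 libraries and Zeb2 1.09-fold in 7 of 8, both under the fold. Nr4a3 was also under the fold, but passed as higher with 2 UMIs of each gate gene, where 4 libraries were compared. Without library 8, which gave 203 of the 728 CD4 T cells, the Nr4a2 ratio was 0.676 and no longer passed. In the 3 libraries without Y-linked transcripts only Tbx21 and Nr4a2 passed. Tox also failed to pass after thinning (0.914), with stricter exclusion (0.793), with 2 UMIs of each gate gene (0.735) and when pooled (0.708). Eomes failed after thinning (0.6498), at a mitochondrial limit of 5% (0.506), with 2 UMIs of each gate gene (0.401) and without the deepest 10% of cells (0.434). Prdm1 failed without exclusion (1.44), with stricter exclusion (2.42), with 2 UMIs of each gate gene (1.44), after thinning (1.83) and when libraries with 5 cells of both were counted. Where these ratios were past 1.5-fold, fewer than 80% of libraries had the direction. Nr4a2 failed at a mitochondrial limit of 5%, without exclusion (0.705), by the median over libraries (0.706) and in libraries with Y-linked transcripts (0.756). Batf failed without exclusion (1.47) and Tbx21 with stricter exclusion (0.416), where 3 libraries were compared. The median log2 ratio was 0.12 over the members and 0.04 over all genes.

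The rare classes allowed levels but little comparison. No library held 20 Foxp3+ T cells, so the fold rule could not be applied to them. Against CD4 T cells their Prdm1 rate was 1.90-fold (1.11 to 3.25) and their Nr4a2 rate 0.571 (0.400 to 0.815). For gamma delta over CD8 T cells the ratios combined all libraries, but only library 6, the library with the most macrophage RNA, held 20 cells of both and decided the direction. On that footing, of 9 members tested, Prdm1 (2.26) passed as higher, and Eomes (0.314), Batf (0.363) and Zeb2 (0.534) as lower. The background was 10.8% higher and 11.5% lower, so the single higher member is near its background share. In library 6 itself Prdm1 was at 29.7 CPM in gamma delta T and 16.1 CPM in CD8 T cells and Zeb2 at 149 and 177 CPM. Its 25 gamma delta T cells had no Eomes or Batf UMI. All 88 gamma delta T cells together held 10 Prdm1, 6 Eomes and 13 Zeb2 UMIs. In 25 of them the counts were too few to decide a direction. Batf rested on 3 UMIs in 88 cells, and its interval (0.117 to 1.12) included 1. Its level was 5.30 CPM without library 2. The Batf ratio was 1.09 with stricter exclusion, but from 1 UMI in 19 gamma delta T cells. The Prdm1 ratio turned to 0.783 in libraries with Y-linked transcripts, the set that holds library 6. When libraries with 5 cells of both were counted, 7 were compared and Prdm1 no longer passed. Tox, Eomes, Batf and Zeb2 were then lower, over 2.83% of all genes higher and 8.99% lower. Prdm1 and Zeb2 also failed without exclusion of other cell types. Eomes, Tbx21 and Batf were lower there, over 5.88% of all genes higher and 6.31% lower.

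**Figure D2:**
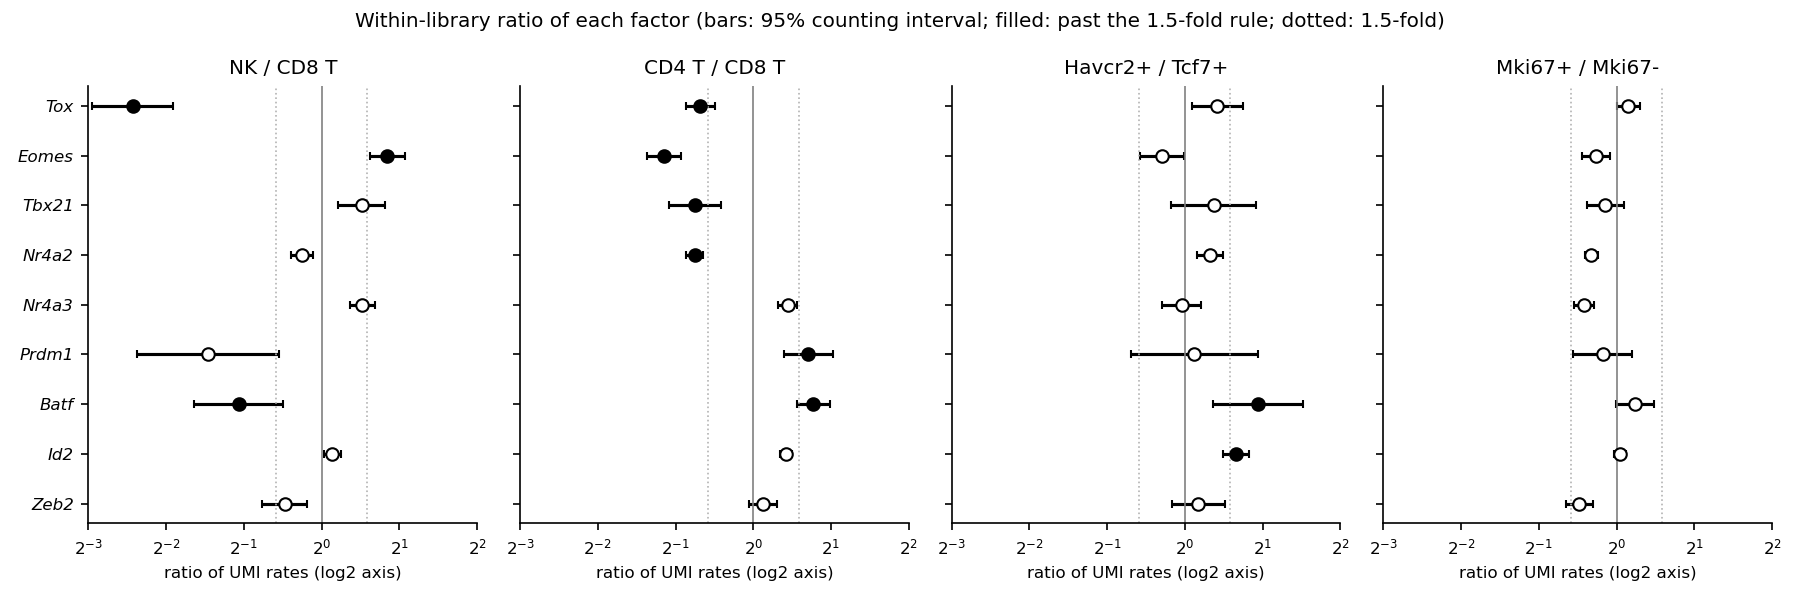
Ratio of UMI rates within libraries (x axis, log2 scale) for 9 factors (y axis; Tox2 is left out as too sparse) in 4 comparisons. Bars are 95% counting intervals, filled points passed the 1.5-fold rule, and dotted lines mark 1.5-fold. Tox had the lowest ratio, 0.185 for NK over CD8 T cells, and no factor passed between Mki67+ and Mki67- CD8 T cells.

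Within CD8 T cells, 653 had a UMI of the proliferation gene Mki67. Of the remainder, 302 were Tcf7+, 486 were Havcr2+, 17 had both and 2246 had neither. Median depth was 2980 UMIs in Tcf7+ cells and 4491 in Havcr2+ cells. A cell without a UMI of Tcf7 or Havcr2 is not shown to lack the gene, and deeper cells are more likely to be placed in a class.

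Havcr2+ cells had more Batf and Id2 than Tcf7+ cells, while Tox differed less. Batf was at 50.5 CPM in Havcr2+ cells (42 to 60.3) and 29.8 in Tcf7+ cells (20.5 to 41.8), a within-library ratio of 1.91 (1.28 to 2.86), higher in 6 of 7 libraries. By library, Batf in Havcr2+ against Tcf7+ cells was 50.0 against 33.9 CPM in library 1, 53.4 against 7.21 in library 2, 21.4 against 21.1 in library 6, 74.0 against 21.04 in library 7, 70.3 against 31.9 in library 8, 55.7 against 0 in library 9 and 21.02 against 45.6 in library 5. The 2 subsets overlapped. Tcf7+ cells held 33 Batf UMIs in 302 cells, and the 0 in library 9 came from 12 cells. In library 6 the levels of both subsets were nearly equal. Had that library not counted as higher, Batf would have missed the share of libraries that the fold rule asks for. Batf still passed when library 6 was left out. Id2 was at 609 and 372 CPM, a ratio of 1.58 (1.40 to 1.77), and was higher in Havcr2+ cells in each of libraries 1, 2, 5, 6, 7 and 8 but not in library 9 (390.2 against 434 CPM). The macrophage list was at 2756 CPM in Havcr2+ cells and 1579 CPM in Tcf7+ cells, and its part in these ratios was not tested. These were 2 of 8 members tested, and none was lower. The background over 5356 genes was 6.89% higher and 4.01% lower. The ratio was 1.34 for Tox (1.06 to 1.68, 5 of 7 libraries), 1.25 for Nr4a2 and 1.29 for Tbx21. The median log2 ratio was 0.34 over the members and 0.04 over all genes. When cells with myeloid UMIs were kept, neither Batf (1.44) nor Id2 (1.19) passed. Without the deepest 10% of cells Id2 alone passed, although the Batf ratio was 2.41.

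Eomes depended on the library. Pooled, it was at 166 CPM in Tcf7+ cells (143 to 192) and 90.8 in Havcr2+ cells (79.2 to 104), intervals that do not overlap. Within libraries the ratio was 0.813 (0.667 to 0.990), lower in 4 of 7 libraries. Library 8, with the highest Eomes in CD8 T cells, held 67 of the 302 Tcf7+ cells and had 275 CPM in Havcr2+ against 231 CPM in Tcf7+ cells. Eomes was also higher in Havcr2+ cells in library 7 (111 against 42.1 CPM) and library 1 (44.98 against 33.9). In library 2 the levels were 49.8 and 137, in library 5 49.9 and 146, in library 6 27.5 and 126 and in library 9 31.9 and 155 CPM. Without library 8 the ratio was 0.462 and the pooled Havcr2+ level 48.5 CPM. When cells with myeloid UMIs were kept, Eomes passed as lower in Havcr2+ cells (0.612). It was 0.351 in libraries with Y-linked transcripts and 1.07 in those without.

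**Figure D3:**
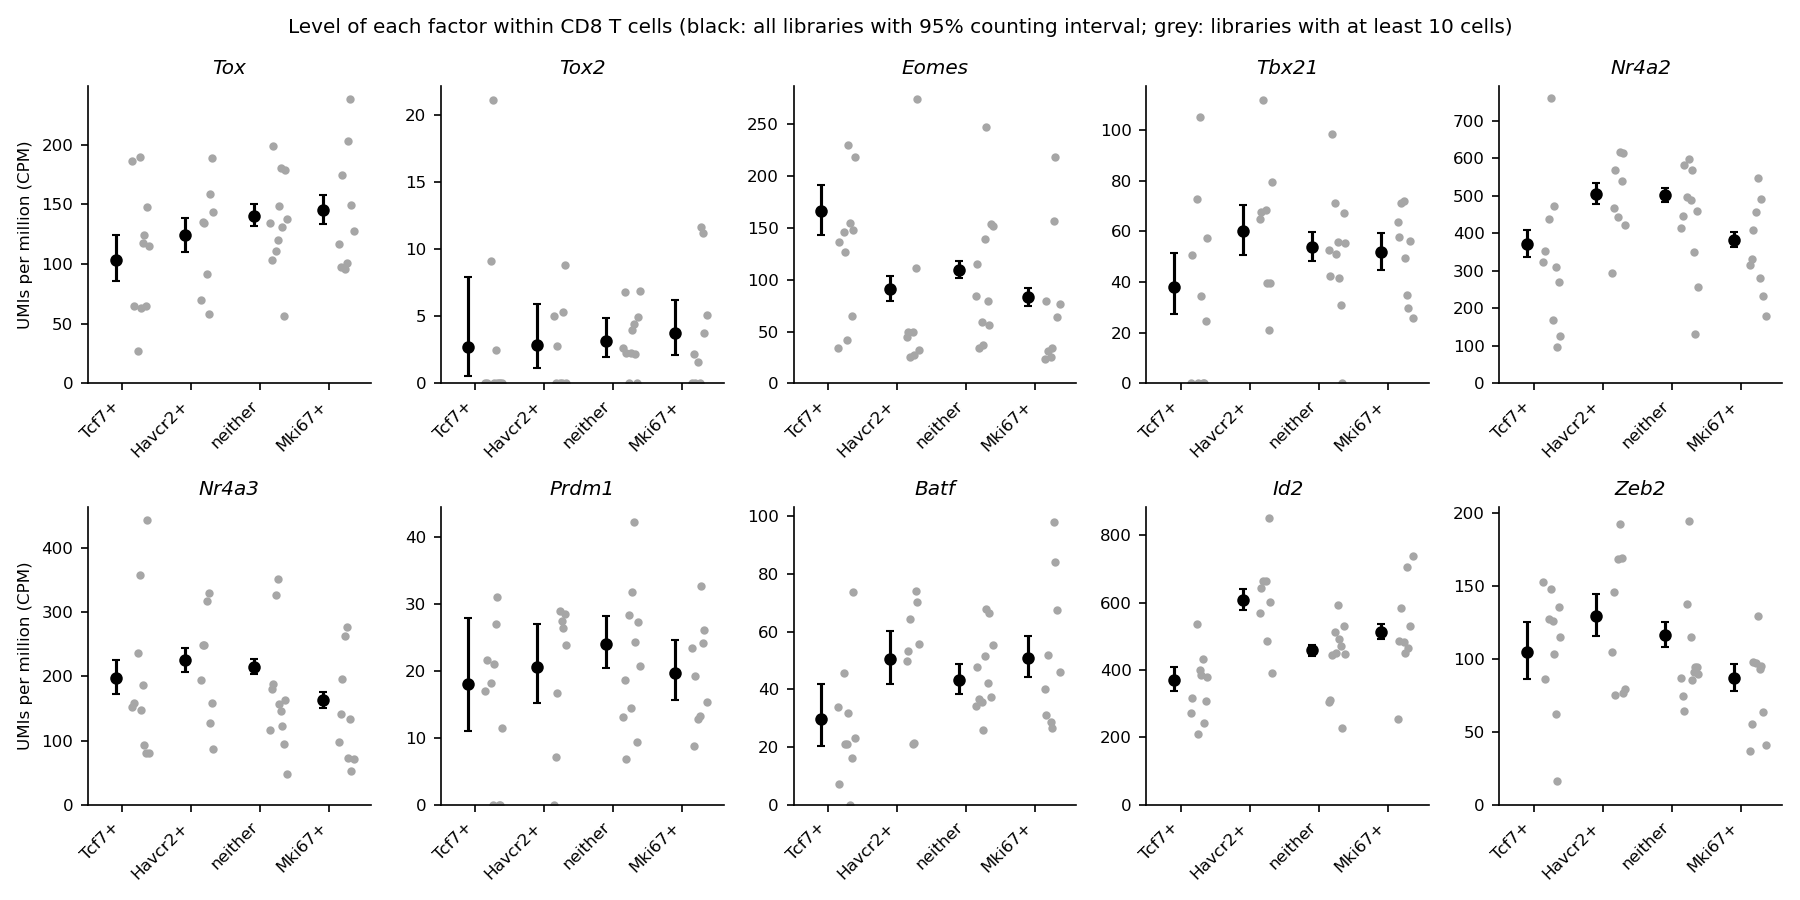
Level of each factor in CPM (y axis) in 4 subsets of CD8 T cells (x axis). Black points give all libraries with the 95% counting interval and grey points give single libraries with at least 10 cells. Batf and Id2 were lower in Tcf7+ than in Havcr2+ cells (29.8 against 50.5 CPM and 372 against 609 CPM), and Nr4a2 and Nr4a3 were lower in Mki67+ cells than in cells with neither gene (382 against 502 and 162 against 215 CPM).

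None of 9 members passed the fold between Mki67+ and Mki67- cells in 9 libraries, where the background over 5515 genes was 8.41% higher and 4.21% lower. Both NR4A genes were lower in Mki67+ cells in 9 of 9 libraries, with a ratio of 0.800 for Nr4a2 (0.755 to 0.847) and 0.750 for Nr4a3 (0.687 to 0.819). Median depth was 4962 UMIs in Mki67+ and 2526 UMIs in Mki67- cells. After thinning, 31.5% of Mki67+ (28.0 to 35.3) and 34.7% of Mki67- cells (32.9 to 36.5) had an Nr4a2 UMI, intervals that overlap. For Nr4a3 the shares were 15.3% (12.6 to 18.3) and 20.1% (18.6 to 21.6), intervals that were apart. Zeb2 was at 86.8 CPM against 119 CPM (ratio 0.718, lower in 7 of 9), with the macrophage list at 1514 CPM in Mki67+ cells and 2788 CPM in cells with none of the 3 genes. Its part in the Zeb2 ratio was not tested. Eomes was at 83.1 CPM against 111 CPM (ratio 0.830, 0.733 to 0.940), lower in 8 of 9 libraries and higher in library 7. It passed as lower with stricter exclusion (0.607), after thinning (0.647) and in libraries with Y-linked transcripts (0.662), whereas the ratio was 0.919 in those without. Tox (1.11), Id2 (1.03) and Batf (1.18) were within 1.2-fold. The median log2 ratio was -0.18 over the members and 0.01 over all genes.

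NR4A genes are early response genes, and tissue digestion can also induce such genes. CD8 T cells with a UMI of Fos, Fosb or Egr1 (1761 cells, median 3647 UMIs) were therefore set against those without (1943 cells, median 2247 UMIs). Nr4a3 was at 231 against 163 CPM (ratio 1.26, 1.16 to 1.36), higher in 10 of 11 libraries, whereas Nr4a2 was at 472 against 438 CPM (1.03). Eomes was lower, at 84.4 against 129 CPM (0.722, 9 of 11). None of 9 members passed the fold, over a background of 2.64% higher and 0.183% lower. The related gene Nr4a1 did pass (1.57-fold, 11 of 11 libraries). The summed level of 10 immediate early and heat shock genes in CD8 T cells ranged from 1470 to 2643 CPM over the libraries with at least 20 such cells and was highest in library 6, which also had the highest Nr4a2 (593 CPM) and Nr4a3 (331 CPM). The part of digestion in these levels was not tested.

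Levels in CD8 T cells varied between libraries. Eomes was at 32.8 to 94.4 CPM in the 5 libraries with Y-linked transcripts and at least 20 cells (median 52.9) and at 70.8 to 242 CPM in the 6 without (median 132), which overlap. Nr4a3 was at 129 to 331 CPM in the first set and 75.2 to 165 CPM in the second, and Batf at 25.1 to 48.8 and 43 to 71.1 CPM. The share of Tcf7+ cells also differed, from 2.37% in library 6 to 38.6% in library 10, where 70 CD8 T cells had the lowest Tox (57.7 CPM) and Nr4a2 (136 CPM) and no Tbx21 UMI. The part of treatment in these ranges was not tested.

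**Figure D4:**
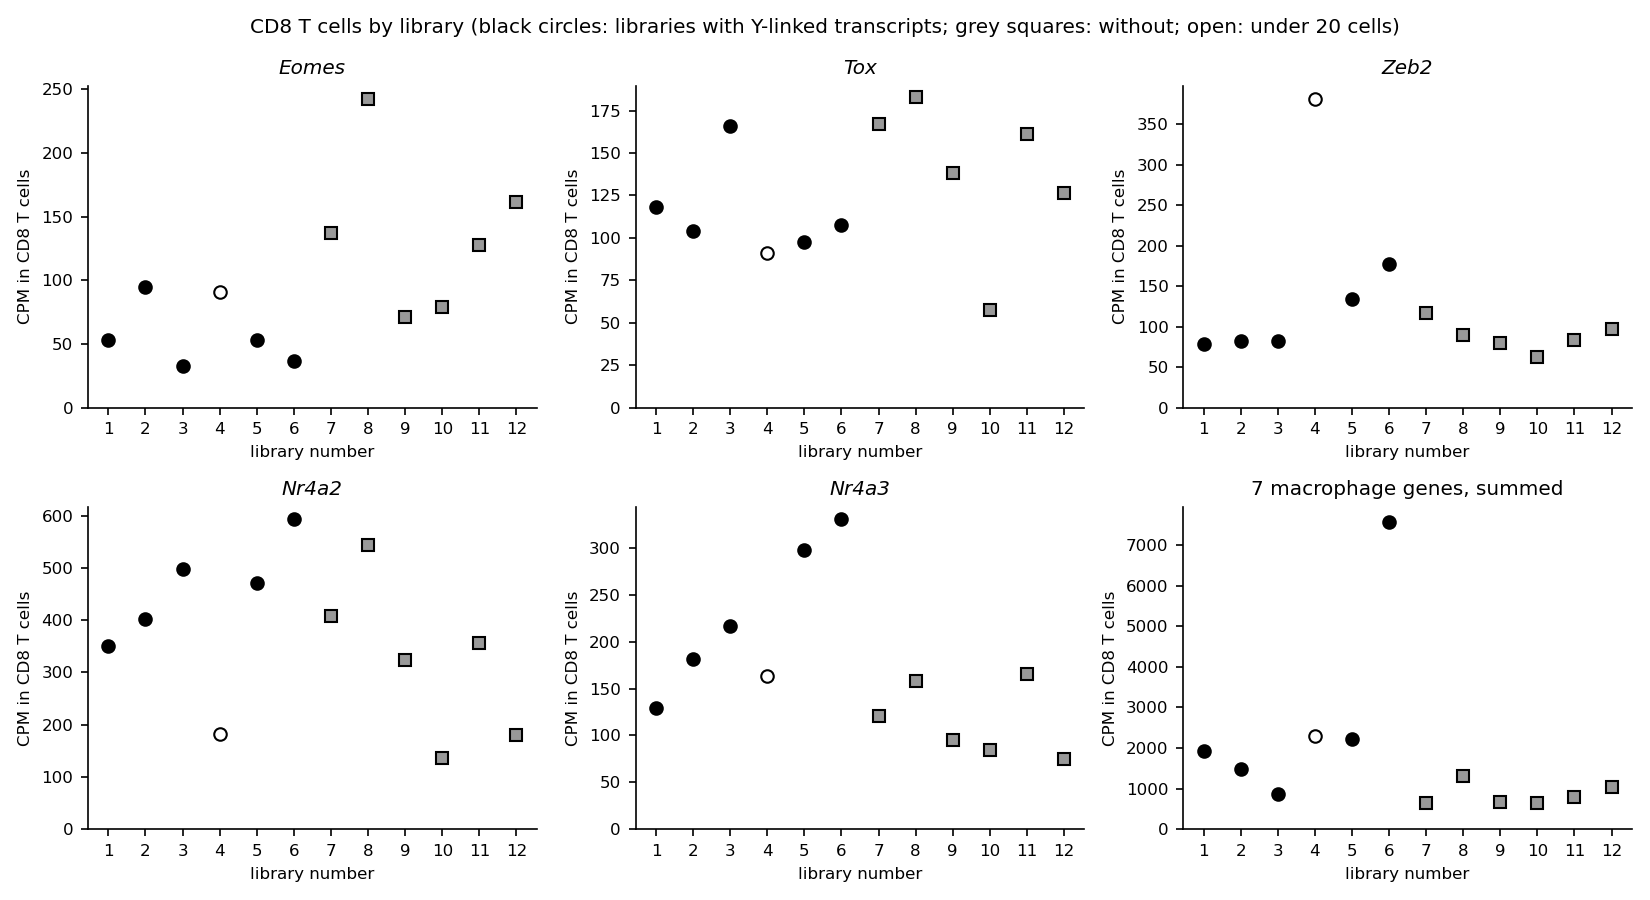
Level of 5 factors and of 7 macrophage genes summed, in CPM (y axis), in the CD8 T cells of each library (x axis, library number). Black circles are libraries with Y-linked transcripts, grey squares those without, and the open circle is library 4 with 9 CD8 T cells. Eomes was highest in library 8 (242 CPM) and Nr4a3, Nr4a2 and the macrophage genes in library 6.

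Detection in the same cell was counted in 2742 CD8 T cells without Mki67, each thinned to 1000 UMIs. Nr4a2 and Nr4a3 were found together in 236 cells, where 192 would be expected if they were independent within each library (odds ratio 1.56). Tox and Nr4a2 shared 139 cells against 117 expected (1.38), whereas Tox and Nr4a3 shared 61 against 62.5 (0.966). Eomes and Id2 shared 68 cells against 84 expected (0.705), and Eomes and Tbx21 shared 11 against 13 (0.817). With sparse counts these are descriptions of detection.

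Likeness of pattern was measured as the Pearson correlation of log2(CPM + 10) over 26 units of class and library among 7332 genes. These units share libraries, depth and classes. Tox was most like Cd3e (0.85), Lat (0.83) and Cd3g (0.83), of the T cell receptor complex and its signaling, of which Cd3e and Cd3g were used in the gates. Batf was most like Zap70 (0.90), Cd5 (0.88) and Pkp3 (0.88). Eomes was most like Evl (0.83), Tbx21 like Baiap2 (0.75), Nr4a2 like Gpd2 (0.71) and Prdm1 like Ttc39c (0.83). Id2 was most like the factor Bhlhe40 (0.79), and Nr4a3 like Dgat1 (0.82). Zeb2 was most like Ms4a6d and Cx3cr1 (0.84 each), which myeloid cells also express.

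Among 30 other transcription factors of T cell states, CD4 T cells were higher than CD8 T cells for 9 of 23 tested and lower for 2, beside 7.65% and 2.74% of all genes. Gata3 (3.07-fold), Rora (3.01), Hif1a (2.76) and Ikzf2 (2.70) led, and Runx3, a CD8 lineage factor, was lower (0.660). In NK cells 3 of 25 were higher, Irf8 (2.65), Myb (2.40) and Satb1, and 6 were lower, with Irf4, the partner of BATF, at 0.143 (4.57% and 8.16% of all genes). In Havcr2+ against Tcf7+ cells 3 of 25 were higher (Irf8 3.09, Rbpj 2.19, Irf4 1.99) and 8 lower, beside 6.89% and 4.01% of all genes. The lower genes included Tcf7, which defined the gate, Klf2 (0.189), Satb1 (0.380) and Lef1 (0.393). In Mki67+ cells 1 of 24 was higher, Myb (2.03), and 6 were lower, among them Satb1 (0.451), Tcf7 (0.477) and Maf (0.512). Of all genes 8.41% were higher and 4.21% lower there, so the single higher factor is no more than the background share.

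Of 8 receptors that mark exhausted cells, 5 of 7 tested were lower in NK than in CD8 T cells, with Cxcr6 at a ratio of 0.0606, Pdcd1 at 0.0642 and Lag3 at 0.198, and none was higher (8.16% and 4.57% of all genes). Havcr2+ cells were higher than Tcf7+ cells in 3 of 7, Tnfrsf9 (3.22), which encodes 4-1BB, Cxcr6 (2.64) and Entpd1 (1.72), beside 6.89% of all genes. In CD4 T cells Ctla4 (2.89) and Tnfrsf9 (1.72) were higher and Cd160 (0.0752) lower, 2 and 1 of 7 tested beside 7.65% and 2.74% of all genes. None of 7 receptors passed between Mki67+ and Mki67- cells, where 8.41% of all genes were higher and 4.21% lower.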

How the data were processed

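CD45+ cells of 12 tumors were profiled with 10x 3′ chemistry. The authors deposited UMI counts per gene and barcode as 1 matrix, with gene and barcode lists. The submitters' processing notes name Cell Ranger 2.1.1, Seurat and the mm10 build, whereas the matrix header names Cell Ranger 3.0.2. Of 140639 barcodes, 128912 passed limits of over 200 and under 5000 detected genes and no more than 10% of UMIs from mitochondrial genes. Lymphocyte gates required no UMI of 6 genes of myeloid, dendritic and B cells. No doublet caller was run. These exclusions address only doublets with those cell types, and how many doublets remain was not tested. Stricter exclusion, which also removed cells with UMIs of Lyz2, C1q genes or S100a8, left 854 CD8 T and 85 NK cells. The deepest 10% of cells were left out only as an alternative and stay in the main levels and ratios. UMIs were summed per class and library. Intervals are exact Poisson for levels and Clopper-Pearson for shares, and ratios are Mantel-Haenszel over libraries (Python 3.11.15, numpy 2.4.6, scipy 1.17.1, figures with matplotlib 3.10.9), tested on simulated counts. The 3′ counts are not per length, so levels were not compared between genes. The members and lists were chosen with earlier results of these data known. All 10 members are named, with at most 6 others per list and comparison. The 3 most alike genes were sought per member, and at least the first is named for each member except Tox2, which was too sparse. Alternatives changed the gates, depth, filters, fold and libraries, and levels without single libraries were added after seeing the data.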

Additional observations from a re-analysis of the deposited data

How the results depend on the processing

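No paired analysis of EZH2i and vehicle was possible, as no label ties a library to a mouse. Class ratios were taken within libraries, whereas levels and their order were pooled. Counts of members passing the fold were recomputed under each alternative. Leaving out 1 library at a time gave 3 to 4 members for NK over CD8 T, 5 to 6 for CD4 over CD8 T, 4 to 5 for gamma delta over CD8 T, 2 for Havcr2+ over Tcf7+, and 0 for Mki67 and for early gene UMIs. Over all genes, 4.46% to 5.75% were then higher and 8.27% to 9.45% lower for NK over CD8 T. For CD4 over CD8 T these shares were 7.57% to 8.96% and 2.63% to 3.74%. They were 10.7% to 12.4% and 11.6% to 13.4% for gamma delta T, and 6.60% to 10.8% and 3.77% to 7.45% for Havcr2+. For Mki67 they were 8.02% to 9.42% and 4.08% to 5.11%, and for early gene UMIs 2.31% to 3.28% and 0.165% to 0.729%. For CD4 over CD8 T the count of 6 became 3 without exclusion of other cell types, 3 with stricter exclusion, 3 after thinning, 2 in libraries without Y-linked transcripts and 1 at a fold of 2. Over all genes 6.70% were higher and 2.44% lower without exclusion, 8.73% and 6.06% with stricter exclusion and 4.93% and 4.62% after thinning. The shares were 7.00% and 2.78% in libraries without Y-linked transcripts and 3.54% and 0.836% at a fold of 2. For Havcr2+ over Tcf7+ the count was 2 (Batf and Id2 higher). It became 1 (Id2) at a mitochondrial limit of 5%, without the deepest 10% of cells and with 5 cells of both. It was also 1 in libraries with (Id2) and without (Batf) Y-linked transcripts, 1 without exclusion (Eomes, lower) and 0 at a fold of 2. Over all genes 7.12% were higher and 4.84% lower at that mitochondrial limit, 6.43% and 3.98% without the deepest cells and 5.19% and 2.99% with 5 cells. The shares were 7.79% and 6.16% with Y-linked transcripts and 8.41% and 4.28% without. They were 8.42% and 4.80% without exclusion and 2.05% and 1.03% at a fold of 2. For Mki67+ over Mki67- the count of 0 became 3 with stricter exclusion (Eomes, Nr4a3 and Zeb2 lower) and 1 after thinning (Eomes, lower). It was also 1 in libraries with (Eomes, lower) and without (Nr4a3, lower) Y-linked transcripts. Over all genes 13.7% were higher and 8.43% lower with stricter exclusion, and 5.30% and 6.21% after thinning. The shares were 8.42% and 5.31% with Y-linked transcripts and 10.7% and 5.80% without. For early gene UMIs it became 4 without exclusion (Zeb2 higher, Tox, Eomes and Tbx21 lower), 1 after thinning (Prdm1, higher) and 1 when pooled (Eomes, lower). Of all genes 11.6% were higher and 4.49% lower without exclusion, 1.90% and 1.07% after thinning and 2.91% and 0.531% when pooled. Zeb2 as the single higher member is near the 11.6%. Foxp3+ over CD4 T gave 3 (Prdm1 higher, Nr4a2 and Batf lower) with at least 5 cells of both, an alternative chosen after seeing the data. Only 2 libraries were compared, with 9.36% of all genes higher and 9.43% lower. The single higher member is near that share. In libraries with Y-linked transcripts gamma delta over CD8 T gave 2 (Eomes and Zeb2 lower), and Prdm1 reversed to 0.783. Of all genes 14.2% were higher and 15.2% lower there. Batf in that comparison was at 1.09 with stricter exclusion, from 1 UMI in 19 cells. The cause of these shifts was not tested. Of member ratios under the alternatives, 191 moved beyond the counting interval in the same direction or without a call and 1387 did not. Alternatives that left no library with enough cells gave no count: stricter exclusion for Havcr2+ over Tcf7+, and stricter exclusion, 2 UMIs, thinning, leaving out library 6 alone or with library 4, and libraries without Y-linked transcripts for gamma delta T cells. The 37 Foxp3+ and 88 gamma delta T cells limit comparison.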
